A study of Mus musculus with 11 samples.

Results

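The 10 genes described here, core parts of the circadian clock and its output with the cell cycle kinase Wee1, were followed across the libraries of the study: Per1, Per2, Per3, Cry1, Cry2, Nr1d1, Nr1d2, Dbp, Tef and Wee1. They were taken by gene name from both deposited tables, and all 10 were present among the 18712 genes that the tables share. They were chosen by the differences between genotypes that earlier work on these same libraries had shown, so those differences are given here as descriptions and without a test. The RNA came from primary mouse mesenchymal stromal cells, the adherent fraction of bone marrow that can become bone, fat or cartilage. The 11 untreated libraries on the C57/BL6 background comprised 3 with an ANXA2 knockout, 4 with an ANXA5 knockout and 4 of the wild type. Annexins bind membrane phospholipids when calcium is present, and the study asked how losing either one altered gene expression. No label ties libraries to separate animals or cultures, so the p-values reflect only how much these samples differ among themselves, whether technically or between sources. It is not stated which part of an annexin gene was removed or whether the deletion was limited to a cell type, and the labels give neither a harvest time of day nor a synchronising step.

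The mammalian clock is a loop of transcription that turns about once a day in nearly every cell, including cultured stromal cells. Arntl (BMAL1) pairs with Clock or Npas2 on E-box DNA and drives the Per, Cry, Nr1d, Dbp and Tef genes; PER and CRY proteins then enter the nucleus and stop that drive, while the nuclear receptors encoded by Nr1d1 and Nr1d2 (REV-ERB alpha and beta) repress Arntl and Npas2. DBP and TEF are leucine zipper activators that act on D-box DNA, where the Nfil3 protein represses. Wee1 encodes the kinase that holds CDK1 inactive before mitosis, and it is known in mouse liver as a direct E-box target that ties the cell cycle to the clock.

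Library depth ranged from 23.3 to 35.7 M reads over the genes of the tables, and 160 to 5273 reads lay behind each value of a member. Values are normalised reads, that is, reads divided by a size factor of the library. The 2 tables, 1 for each knockout, were scaled separately, so the same 4 wild type libraries carry slightly different values in each. The targets matched the labels: Anxa2 stood at 28.6% of the wild type mean in the ANXA2 knockout, and Anxa5 at 9.24% in the ANXA5 knockout. All 10 markers of stromal cells were measured in each library, and so were all markers of macrophages (7) and neutrophils (6), none of them at 0 reads. Summed macrophage markers came to 67915 to 141153 in ANXA2 knockout and 68623 to 106461 in wild type libraries, and to 109418 to 133002 in ANXA5 knockout and 75050 to 116739 in wild type libraries. Neutrophil sums were 180022 to 454450 against 202197 to 362102, and 323513 to 431731 against 221135 to 397062, in the same order. In the ANXA5 knockout all 7 macrophage markers lay above 0, with a median log2 difference of 0.38. Of these, 6 had an unadjusted limma p under 0.05 (11.9% of all genes) and 3 lay wholly above the wild type (3.01%). All 6 neutrophil markers lay above 0 there, with a median of 0.36, and 2 had such a p. In the ANXA2 knockout the medians were 0.19 and 0.20, with 0 such p-values. Limma and DESeq2 called 0 of them in either knockout. Summed stromal markers came to 339912 to 548164 in the ANXA2 knockout, against 186929, 230588, 441062 and 418823 in wild type libraries 1 to 4, and to 374516 to 521938 in the ANXA5 knockout, against 204437, 252394, 487133 and 459259. Endothelial, erythroid and B cell markers were also above 0 reads throughout. Of 5 endothelial markers 4 lay above 0 in the ANXA5 knockout, with a median log2 difference of 1.13; all 5 had an unadjusted limma p under 0.05 (11.9% of all genes), and limma called 0 and DESeq2 2 (1.89% of all genes). Summed, they came to 3544 to 5084 in the ANXA5 knockout, against 3338 to 4311 in the wild type. The 5 erythroid markers had medians of -0.57 in the ANXA2 and 0.56 in the ANXA5 knockout, with 0 at an unadjusted p under 0.05 and 0 called by DESeq2, and of -1.21 between the knockouts, where all 5 lay below 0 with an unadjusted p under 0.05 (13.6% of all genes) and limma called 0 and DESeq2 2 (2.46% of all genes). Of 5 B and plasma cell markers, 3 had an unadjusted limma p under 0.05 in the ANXA2 knockout (8.69% of all genes), 2 of them higher and 1 lower. In the ANXA5 knockout 2 had such a p (11.9%), both higher. Limma called 0 of the 5 in either knockout, and DESeq2 called 0 in the ANXA2 (0.645% of all genes) and 1 in the ANXA5 knockout (1.89%). The part of these markers in the differences of the clock genes was not tested. In such bulk RNA, fewer cells of a type and less RNA per cell cannot be told apart. Xist, expressed from the inactive X chromosome, set libraries of a group apart. It stood at 652, 226 and 203 normalised reads in ANXA2 knockout libraries 1, 3 and 4, at 783, 2.07, 1676 and 528 in ANXA5 knockout libraries 1 to 4, and at 1829, 1997, 1.16 and 0.96 in the wild type ones (ANXA2 table). The labels give no sex, and the groups may mix or pool animals of both sexes.

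By GENCODE vM21 (GRCm38) the members lie on chromosomes 1 (Per2), 2 (Cry2), 4 (Per3), 7 (Dbp and Wee1), 10 (Cry1), 11 (Per1 and Nr1d1), 14 (Nr1d2) and 15 (Tef), and none shares a chromosome with Anxa2 (9) or Anxa5 (3). Upstream DNA is shown for 4 members whose windows held a match, because the clock acts on such genes through short elements near their start sites. The 250 bases before the RefSeq start site (GRCm38.p6, a build earlier than that of the deposited values) were read for 8 of the 10 members, which had 10 such windows, and for 32851 mouse promoters in all, on both strands and with 50 bases after the start included. Capitals mark an E-box (CACGTG), an E'-box (CACGTT, or AACGTG when read from the other strand), a D-box (TTATGTAA) or a ROR element (TNGGTCA, or TGACCNA from the other strand), the last being the site that REV-ERB proteins share with their activating relatives. All are written 5' to 3' on the strand of the gene.
Per1, chr11:69098699-69098948, plus strand: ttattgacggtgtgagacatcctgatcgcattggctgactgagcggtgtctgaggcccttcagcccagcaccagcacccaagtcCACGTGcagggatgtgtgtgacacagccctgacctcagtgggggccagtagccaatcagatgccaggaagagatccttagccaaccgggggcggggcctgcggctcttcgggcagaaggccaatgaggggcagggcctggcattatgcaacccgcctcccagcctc
Per3, chr4:151044666-151044915, minus strand: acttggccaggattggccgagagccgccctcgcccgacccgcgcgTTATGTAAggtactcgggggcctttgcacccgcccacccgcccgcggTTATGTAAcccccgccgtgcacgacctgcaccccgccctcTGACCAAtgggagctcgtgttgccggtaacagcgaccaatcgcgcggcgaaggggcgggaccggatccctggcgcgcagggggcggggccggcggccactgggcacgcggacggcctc
Nr1d1, chr11:98775378-98775627, minus strand: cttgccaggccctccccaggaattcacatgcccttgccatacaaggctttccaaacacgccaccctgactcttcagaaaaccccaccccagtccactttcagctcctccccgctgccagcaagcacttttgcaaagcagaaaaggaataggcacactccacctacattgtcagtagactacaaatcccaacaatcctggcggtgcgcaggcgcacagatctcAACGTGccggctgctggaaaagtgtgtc
Tef, chr15:81811164-81811413, plus strand: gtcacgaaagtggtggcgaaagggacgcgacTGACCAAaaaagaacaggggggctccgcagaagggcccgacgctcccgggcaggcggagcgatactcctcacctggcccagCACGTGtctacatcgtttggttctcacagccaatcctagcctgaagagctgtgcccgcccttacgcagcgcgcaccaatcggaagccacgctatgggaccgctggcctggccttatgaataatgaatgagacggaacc

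An E-box began 166 bases before the start site shown for Per1 and 138 bases before the one shown for Tef. CACGTG lay in the windows of 3 of the 8 members (Cry1, Per1 and Tef) and in 7.15% of all promoters. CACGTT lay in those of Cry1, Cry2 and Nr1d1, against 4.68% of all promoters. Per3 held the D-box letters at 205 and at 158 bases before its start, and 0.938% of all promoters held them at least once. The ROR letters occurred in Cry2, Per3 and Tef and in 10.96% of all promoters, among them that of Arntl. The windows of Dbp and Nr1d2 and the other window of Per1 held none of these letters. Members were counted by gene over 10 windows, whereas the shares are per promoter. A match of letters is a description of the window and not a binding site.

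The Period genes, whose proteins form the repressing limb of the loop, were higher in the ANXA2 knockout than in the wild type. Per1 (ENSMUSG00000020893.18), the Period gene that also answers acutely to hormones and cyclic AMP, held 1013, 1621 and 1191 normalised reads in ANXA2 knockout libraries 1, 3 and 4, against 338, 334, 738 and 656 in wild type libraries 1 to 4. The ANXA5 table gave 1413, 1287, 1011 and 1582 in its knockout libraries 1 to 4, against 370, 366, 815 and 720 in the wild type. Every library of either knockout lay above every wild type library. The log2 differences were 1.37 (SE 0.312) for the ANXA2 and 1.30 (SE 0.270) for the ANXA5 knockout, or 2.47-fold and 2.33-fold between means. Wild type libraries 1 and 2, with high Xist, held the lower Per1 values, and 3 and 4, with Xist near 0, the higher ones. The stromal marker sums divided the wild type in the same way, lower in libraries 1 and 2; the part of that split in the difference was not tested. Of the ANXA5 knockout, library 2 was the one with Xist near 0, and it held 1287 of Per1. The ANXA2 knockout had no library with Xist near 0. The part of the Xist split in the Per1 difference was not tested.

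Per2 (ENSMUSG00000055866.10), needed for a persisting rhythm in mice, held 920, 977 and 653 normalised reads in the ANXA2 knockout, against 298, 463, 533 and 482 in the wild type, and the groups did not overlap. Its values were 1171, 804, 477 and 1058 in the ANXA5 knockout, against 326, 507, 589 and 528. Library 3 of the ANXA5 knockout fell inside the wild type range, and the other 3 lay above it. Per3 (ENSMUSG00000028957.13), which is dispensable for the rhythm itself, held 385, 348 and 309 in the ANXA2 knockout, against 177, 216, 252 and 240 in the wild type. Its 4 values in the ANXA5 knockout were 323, 274, 249 and 336, against 194, 236, 278 and 263. The ANXA2 knockout stood clear of the wild type for Per3, and in the ANXA5 knockout libraries 1 and 4 did so. The log2 differences of Per2 were 0.95 (SE 0.221) and 0.80 (SE 0.278), and those of Per3 were 0.66 (SE 0.160) and 0.29 (SE 0.149), ANXA2 knockout first. Without wild type library 1 the ANXA5 difference of Per3 came to 0.18.

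**Figure D1:**
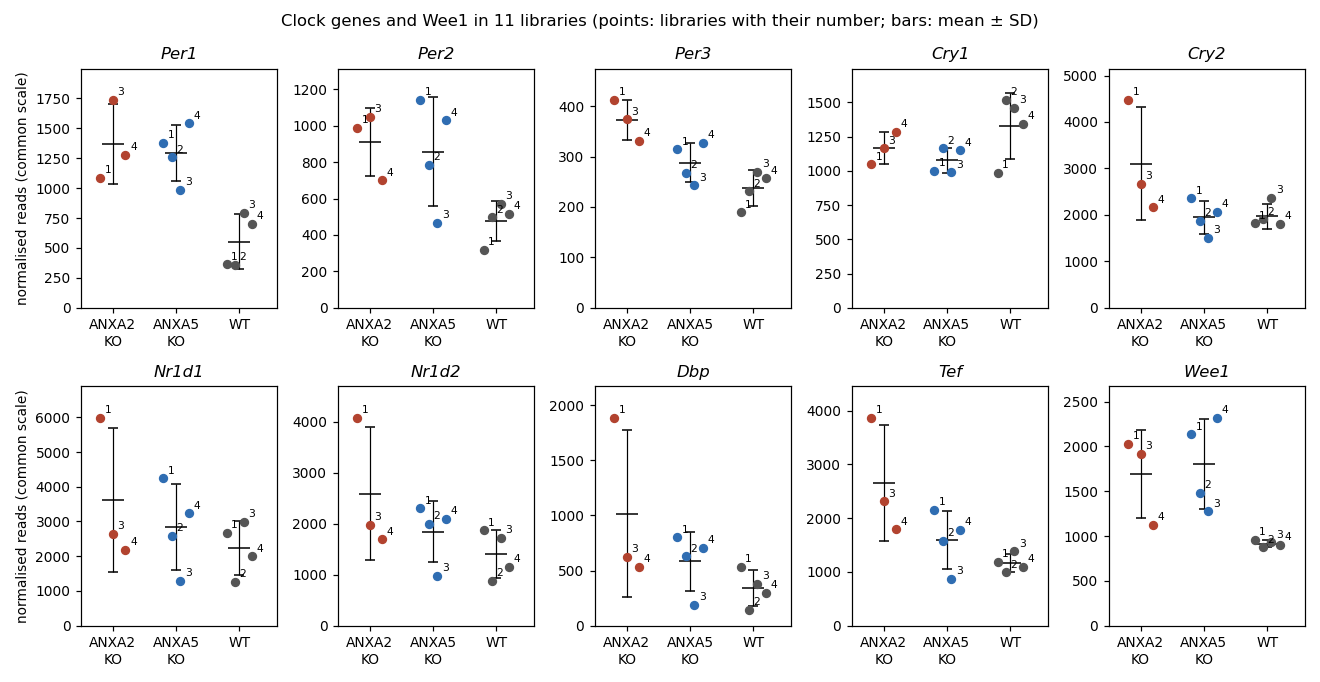
Normalised reads of the 10 genes in all 11 libraries, with every library on 1 common scale (y axes, linear from 0); points are libraries with their numbers, horizontal bars the mean and vertical bars the SD of the ANXA2 knockout (n = 3), ANXA5 knockout (n = 4) and wild type (n = 4). For Per1 and Wee1 all knockout points lie above all wild type points, while for Cry1 they lie below wild type libraries 2 to 4; ANXA2 knockout library 1 is the highest point for Cry2, Nr1d1, Nr1d2, Dbp and Tef.

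The cryptochromes, partners of the PER proteins and the stronger repressors of the pair, did not move together. Cry1 (ENSMUSG00000020038.11) was the only member with a lower mean in both knockouts. Its values were 975, 1087 and 1197 normalised reads in the ANXA2 knockout, against 920, 1418, 1361 and 1255 in the wild type, and 1024, 1192, 1014 and 1181 in the ANXA5 knockout, against 1006, 1552, 1503 and 1376. In both tables all knockout values lay between wild type library 1 and the other 3 wild type libraries. The log2 differences were -0.17 (SE 0.161) and -0.29 (SE 0.138), the first coming to -0.31 without wild type library 1 and to -0.10 without ANXA2 knockout library 1 or wild type library 2. Cry2 (ENSMUSG00000068742.12) held 4175, 2492 and 2016 in the ANXA2 knockout, against 1698, 1779, 2209 and 1684 in the wild type. Libraries 1 and 3 of the ANXA2 knockout lay above the wild type range and library 4 inside it, and the log2 difference of 0.59 (SE 0.228) came to 0.29 without library 1. Cry2 in the ANXA5 knockout held 2414, 1919, 1541 and 2128, against 1857, 1947, 2440 and 1846, with a log2 difference of -0.03 (SE 0.144) that was 0.09 without ANXA5 knockout library 3 and -0.12 without ANXA5 knockout library 1. Dropping wild type library 3 gave 0.07.

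Nr1d1 (ENSMUSG00000020889.12) and Nr1d2 (ENSMUSG00000021775.12), the repressors of Arntl, varied widely within groups. Nr1d1 held 5584, 2466 and 2041 normalised reads in the ANXA2 knockout, against 2499, 1178, 2791 and 1860 in the wild type. It held 4350, 2655, 1327 and 3324 in the ANXA5 knockout, against 2733, 1289, 3083 and 2040. The groups overlapped in both tables: ANXA2 knockout library 1 and ANXA5 knockout libraries 1 and 4 exceeded the wild type range, and the other knockout libraries lay inside it. The log2 difference of Nr1d1 was 0.62 (SE 0.383) in the ANXA2 knockout and 0.18 without library 1. For the ANXA5 knockout it was 0.30 (SE 0.363), 0.05 without wild type library 2 and 0.64 without ANXA5 knockout library 3.

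Nr1d2 put the libraries of each knockout in the same order as Nr1d1. It held 3805, 1846 and 1579 normalised reads in the ANXA2 knockout, against 1749, 822, 1602 and 1074 in the wild type. For the ANXA5 knockout the values were 2360, 2048, 998 and 2159, against 1913, 900, 1770 and 1177. Of the 7 knockout libraries, ANXA2 knockout library 4 and ANXA5 knockout library 3 lay inside the wild type range and the other 5 above it. The log2 differences were 0.83 (SE 0.344) and 0.38 (SE 0.304); without ANXA2 knockout library 1 the first was 0.44, and the second was 0.18 without wild type library 2 and 0.67 without ANXA5 knockout library 3.

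Dbp (ENSMUSG00000059824.13) and Tef (ENSMUSG00000022389.16) encode the D-box activators, Dbp being among the outputs of the clock with the widest daily swing. Dbp had the highest log2 difference of the members in the ANXA2 knockout, with 1759, 581 and 499 normalised reads, against 497, 133, 355 and 276 in the wild type. The groups did not overlap, but the lowest knockout and the highest wild type value were nearly equal. Dbp in the ANXA5 knockout held 822, 642, 196 and 727, against 543, 145, 392 and 303, with library 3 again inside the wild type range. The log2 difference was 1.49 (SE 0.518) in the ANXA2 knockout, or 0.92 without library 1. It was 0.75 (SE 0.491) in the ANXA5 knockout, 0.38 without wild type library 2 and 1.22 without ANXA5 knockout library 3.

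Tef held 3606, 2156 and 1671 normalised reads in the ANXA2 knockout, against 1106, 929, 1287 and 1026 in the wild type. The groups did not overlap, and the log2 difference was 1.12 (SE 0.239). ANXA5 knockout libraries 1 to 4 held 2206, 1614, 893 and 1829 reads of Tef, against 1210, 1017, 1421 and 1125. There libraries 1, 2 and 4 lay above and library 3 below all wild type libraries, and the log2 difference of 0.39 (SE 0.241) came to 0.66 without library 3 and to 0.22 without library 1.

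Wee1 (ENSMUSG00000031016.10) had the narrowest wild type range of all members and was higher in every library of both knockouts. It held 1895, 1785 and 1052 normalised reads in the ANXA2 knockout, against 893, 816, 866 and 839 in the wild type. The ANXA5 knockout held 2187, 1519, 1305 and 2384, against 977, 893, 957 and 921. The log2 differences were 0.84 (SE 0.192) and 0.94 (SE 0.175), or 1.85-fold and 1.97-fold between means. Leaving out any 1 library kept the ANXA2 difference between 0.68 and 1.11 and the ANXA5 difference between 0.80 and 1.09. The highest wild type value was 1.09 times the lowest on the common scale, whereas this ratio was 1.80 in the ANXA2 and 1.82 in the ANXA5 knockout.

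The genes that Wee1 works with at the entry into mitosis were taken from a list of G2/M partners, 15 of which were tested. With limma, 0 of them passed the adjusted threshold of 0.05 in the ANXA2 knockout; 0 did so at an unadjusted p under 0.05, and 0 with edgeR or DESeq2. Of the 15, 3 lay above 0, and the median log2 difference was -0.05, against 0.02 over all genes tested. For the ANXA5 knockout limma called 0 of 15, edgeR 0 and DESeq2 0, while 7 had an unadjusted p under 0.05, a rule that 11.9% of all genes met. All 15 lay above 0 there, with a median of 0.30, against 0.01 over all genes. Cdk1, the kinase that Wee1 inhibits, held 532, 778 and 1096 normalised reads in the ANXA2 knockout, against 713, 865, 644 and 1021 in the wild type (log2 -0.05, limma adjusted p = 0.96). Cdk1 held 998, 1156, 1245 and 979 in the ANXA5 knockout, against 780, 947, 711 and 1119 (log2 0.31, limma adjusted p = 0.434). Cdc25a, a phosphatase that opposes Wee1, had a log2 difference of 0.00 (limma adjusted p = 0.999) in the ANXA2 and 0.37 (limma adjusted p = 0.305) in the ANXA5 knockout.

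Counted together, 9 of the 10 members lay above 0 in the ANXA2 knockout, with a median log2 difference of 0.83, against 0.02 over the 16123 genes tested. For the ANXA5 knockout 8 lay above 0, with a median of 0.39, against 0.01 over 16224 genes. That median came to 0.25 without ANXA5 knockout library 1 and to 0.66 without library 3, where 9 members lay above 0. All 10 had passed the filter on low values in both tables. The ANXA2 knockout group lay wholly above the wild type for 6 members (Per1, Per2, Per3, Dbp, Tef and Wee1), as it did for 4.56% of all genes. In the ANXA5 knockout this held for Per1 and Wee1, and for 3.01% of all genes. The authors' deposited table called 5 members higher in the ANXA2 knockout (Per1, Per2, Per3, Tef and Wee1), where it called 0.380% of genes higher, and 2 in the ANXA5 knockout (Per1 and Wee1), where it called 0.991% higher. Own DESeq2 fits called the same members, against 0.645% and 1.89% of all genes. Limma called 0 members in either comparison and so did edgeR, at background shares of 0.112% and 0.0308% for limma and of 0.130% and 0.0308% for edgeR. At an unadjusted limma p under 0.05, 8 members passed in the ANXA2 knockout and 3 in the ANXA5 knockout, against 8.69% and 11.9% of all genes. Since the members were chosen with these contrasts known, the counts describe the choice and carry no test.

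**Figure D2:**
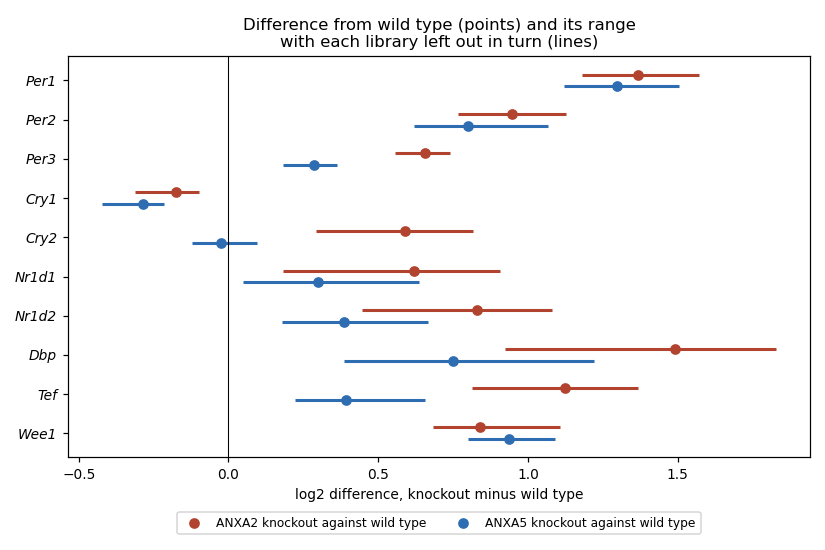
Log2 difference from the wild type (x axis) of the 10 genes (y axis) in the ANXA2 knockout (red) and the ANXA5 knockout (blue); points use all libraries and lines span the values with each library left out in turn. Per1 lies near 1.3 to 1.4 in both knockouts and Wee1 near 0.8 to 0.9, Cry1 stays below 0, and Dbp and Nr1d1 have the longest lines of each knockout.

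Library by library, ANXA2 knockout library 1 exceeded all 4 wild type libraries for 9 members, library 3 for 8 and library 4 for 6, on a common scale of all 11 libraries. ANXA5 knockout libraries 1 and 4 did so for 8 members each and library 2 for 6. ANXA5 knockout library 3 did so for 2 members, Per1 and Wee1, and lay below all wild type libraries for 2 others, Tef and Cry2. Its median member stood at -0.39 (log2) from the wild type mean, against 0.51 to 0.95 in the other ANXA5 knockout libraries and 0.42 to 1.17 in the ANXA2 knockout. Macrophage and neutrophil sums of ANXA5 knockout library 3 were the lowest of its group, at 109418 and 323513. Among ANXA2 knockout libraries they were lowest in library 1, at 67915 and 180022, and highest in library 4, at 141153 and 454450. In the ANXA2 knockout the median member ran against these sums, but Per1 and Cry1 were lowest in library 1 and Per2 was highest in library 3. In the ANXA5 knockout the library with the lowest median member also had the lowest sums. The part of these sums in the differences was not tested.

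Between the knockouts, set side by side on the common scale, the libraries overlapped for 9 of the 10 members. By their fitted differences 9 were higher in the ANXA2 than in the ANXA5 knockout, with a median log2 difference of 0.35, against 0.01 over 16791 genes. Per3 alone did not overlap, with 413, 374 and 332 normalised reads in the ANXA2 knockout, against 315, 268, 243 and 327 in the ANXA5 knockout, while 6.60% of all genes had an ANXA2 knockout group wholly above the ANXA5 knockout. Per1 averaged 1368 ± 335 in the ANXA2 knockout (SD, n = 3) and 1291 ± 233 in the ANXA5 knockout (SD, n = 4), a log2 difference of 0.07 (SE 0.285). Wee1 averaged 1692 ± 491 and 1804 ± 503 in the same order, a log2 difference of -0.10 (SE 0.226). With each library left out in turn, Per1 ran from -0.11 (without ANXA2 knockout library 3) to 0.23 (without library 1) and Wee1 from -0.25 (without library 1) to 0.17 (without library 4). Dbp, Tef and Cry2 differed more, by 0.74 (SE 0.571), 0.73 (SE 0.295) and 0.62 (SE 0.220). Without ANXA2 knockout library 1 these came to 0.18, 0.43 and 0.32, and the median over the members was 0.18; without ANXA5 knockout library 3 Dbp came to 0.27, Tef to 0.47 and the median to 0.12. The median was 0.53 without ANXA2 knockout library 4. Limma, edgeR and DESeq2 called 0 members here, at background shares of 0.298%, 0.262% and 2.46%, and 3 had an unadjusted limma p under 0.05, against 13.6% of all genes.

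Apart from the genotype, the members varied together from library to library within a group. For each pair, Pearson's r was taken over the 11 libraries between deviations from the mean of the own group; these values share libraries and scaling and are a description. The median over the 45 pairs was 0.66, and 39 were above 0. The 6 pairs among Nr1d1, Nr1d2, Dbp and Tef ran from 0.90 to 0.98. Per2 and Per3 reached 0.90, and Wee1 was nearest to Tef, at 0.82. Per1 was looser, with a median of 0.28 over its 9 pairs, and Cry1 had a median of -0.16 and was lowest with Dbp, at -0.41. Without Cry1 all 36 pairs lay above 0, the lowest at 0.15. Dbp swung most: its highest value was 3.52 times its lowest in the ANXA2 knockout, 4.18 times in the ANXA5 knockout and 3.74 times in the wild type. For Cry1 these ratios were 1.23, 1.18 and 1.54.

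**Figure D3:**
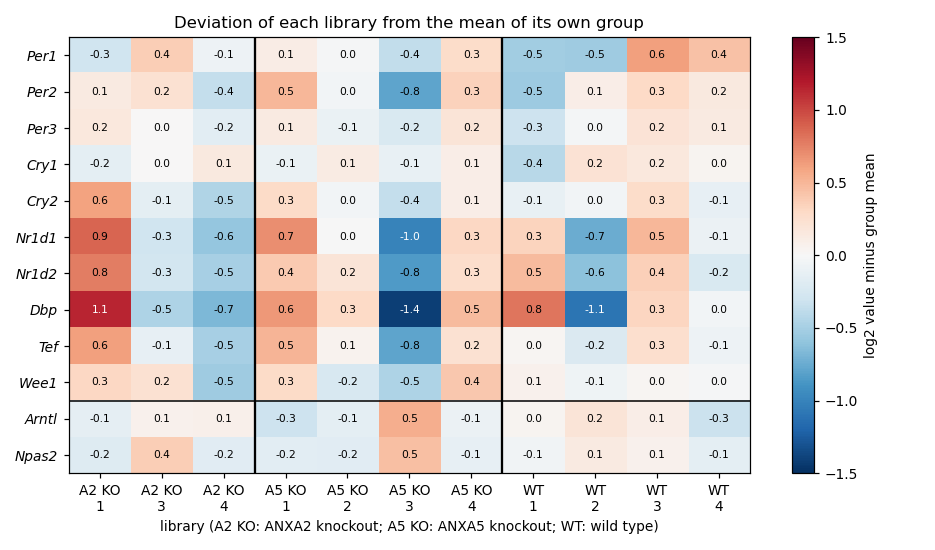
Log2 value of each gene (rows) in each library (columns) less the mean of its own group, on the common scale; red is above and blue below the group mean, and Arntl and Npas2 are added under the line. Nr1d1, Nr1d2, Dbp and Tef are red together in ANXA2 knockout library 1 and ANXA5 knockout library 1 and blue together in ANXA5 knockout library 3, where Arntl and Npas2 are both 0.5 above their mean.

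The genes most like the members in this respect were sought among 12906 others with a mean of at least 50. Tgm2, a transglutaminase that crosslinks matrix proteins, came first at r = 0.99 with the mean deviation of the 10 members. Pink1, a mitochondrial kinase, followed at 0.98, and Acad11, Map3k3, Tle1, Susd6 and Otud7b at 0.98 to 0.96. At the other end stood Ptgir, the prostacyclin receptor, at -0.96, with Trmt13, Fam221a and Nme4 at -0.94. Nearest to Wee1 alone were Comp, a cartilage matrix protein (0.97), and Gm45819, Cab39l and Hp1bp3 (0.96). Nearest to Nr1d1 alone were Rhoa (0.96), Cyfip1 (0.95), Adprh (0.95) and Ric8b (0.94). These are the extremes of 12906 genes over 11 libraries, and no test was attached to them.

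Of the rest of the clock, 29 genes were tested in each comparison. Limma called 0 of 29 in the ANXA2 knockout, as did edgeR and DESeq2, and 5 had an unadjusted p under 0.05, as did 8.69% of all genes. For the ANXA5 knockout limma and edgeR called 0 of 29 and DESeq2 called 2, at a share of 1.89% over all genes, and 6 had an unadjusted p under 0.05, as did 11.9% of all genes. The median log2 differences over the 29 were -0.03 and -0.12. Rorb, a nuclear receptor that activates through ROR elements, was the lowest of the 29 in the ANXA5 knockout at -0.98 (SE 0.344, limma adjusted p = 0.34), with overlapping groups, and was at -0.29 (SE 0.469, limma adjusted p = 0.865) in the ANXA2 knockout. The activators Arntl and Npas2 lay below 0 in both. Arntl held 1147, 1324 and 1327 normalised reads in the ANXA2 knockout, against 1865, 2072, 1941 and 1449 in the wild type, without overlap (log2 -0.52, SE 0.138, limma adjusted p = 0.471). ANXA5 knockout libraries held 992, 1109, 1790 and 1164, against 2039, 2268, 2144 and 1589, and library 3 alone reached the wild type range (log2 -0.69, SE 0.181, limma adjusted p = 0.235).

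Npas2, which stands in for Clock, held 1187, 1750 and 1201 in the ANXA2 knockout, against 1877, 2145, 2026 and 1763 in the wild type (log2 -0.52, SE 0.153, limma adjusted p = 0.50). Its values were 1228, 1224, 1887 and 1262 in the ANXA5 knockout, against 2053, 2347, 2238 and 1934 (log2 -0.64, SE 0.143, limma adjusted p = 0.227). The groups did not overlap in either table, as for 4.63% and 3.36% of all genes on the lower side, and limma called Npas2 when ANXA5 knockout library 3 was left out. The authors' deposited table called Arntl (adjusted p = 0.0497) and Npas2 (adjusted p = 0.0201) lower in the ANXA5 knockout, where it called 0.771% of all genes lower, and neither in the ANXA2 knockout (adjusted p = 0.106 and 0.258). Clock itself had log2 differences of -0.05 and -0.12 (limma adjusted p = 0.922 and 0.64). Hlf, the third D-box activator, held 305, 257 and 201 in the ANXA2 knockout, against 99.6, 192, 155 and 125 in the wild type (log2 0.85, SE 0.244, limma adjusted p = 0.488), but had a log2 difference of 0.01 in the ANXA5 knockout (limma adjusted p = 0.986). Sirt1, a deacetylase that acts on PER2, was at -0.36 and -0.35 (limma adjusted p = 0.528 and 0.306).

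**Figure D4:**
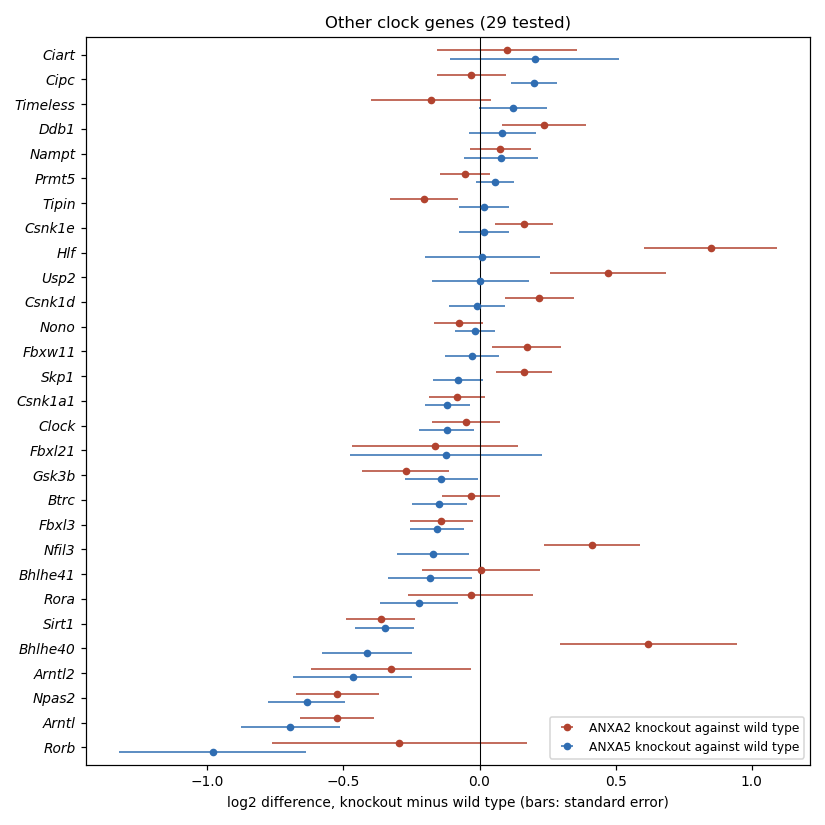
Log2 difference from the wild type (x axis; bars are standard errors of limma) of the 29 other clock genes (y axis) in the ANXA2 knockout (red, n = 3) and ANXA5 knockout (blue, n = 4), each against 4 wild type libraries. Arntl and Npas2 lie between -0.5 and -0.7 in both, Hlf near 0.8 in the ANXA2 knockout, and 0 genes passed the adjusted threshold of limma.

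The limbs of the loop were also set against each other within each library, as ratios of recovered reads. Nr1d1 reads per Arntl read were 4.87, 1.86 and 1.54 in ANXA2 knockout libraries 1, 3 and 4 and 4.38, 2.39, 0.742 and 2.85 in ANXA5 knockout libraries 1 to 4, against 1.34, 0.568, 1.44 and 1.28 in wild type libraries 1 to 4. Per1 reads per Arntl read were 0.883, 1.22 and 0.898 in the ANXA2 knockout and 1.42, 1.16, 0.565 and 1.36 in the ANXA5 knockout, against 0.181, 0.161, 0.380 and 0.453 in the wild type. By the Per1 ratio all 7 knockout libraries exceeded all wild type libraries, and by the Nr1d1 ratio ANXA5 knockout library 3 was the exception. That library also lay inside the wild type range for Dbp (0.110) and Per2 (0.267) reads per Arntl read. The members on top of these ratios were chosen by their higher values in the knockouts, so the separation follows in part from that choice and carries no test. Within groups Arntl had r = -0.72 and Npas2 r = -0.52 with the mean deviation of the members, at places 424 and 1535 from the lowest of 12906 genes. Many genes outside the clock thus lay lower than either, and Clock had 0.29. Nfil3, the D-box repressor, had 0.82 (place 283 from the highest), and Tipin, a replication fork factor, -0.84 (place 66 from the lowest). Arntl and Npas2 deviated most from their group mean in ANXA5 knockout library 3, by 0.54 and 0.46 (log2).

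Genes that share inputs or outputs with the clock were read from further lists, some of which share genes. Limma called 0 genes in each of these lists and so did edgeR. Over all genes, an unadjusted p under 0.05 was met by 8.69% in the ANXA2 and 11.9% in the ANXA5 knockout, and DESeq2 called 0.645% and 1.89%. Of 22 outputs of the clock in many tissues, 20 lay above 0 in the ANXA2 and 15 in the ANXA5 knockout, with medians of 0.27 and 0.05; 7 and 3 had an unadjusted p under 0.05, the second near the share over all genes, and DESeq2 called 1 and 1. Cdkn1a, which encodes the cell cycle inhibitor p21, was at 0.51 (limma adjusted p = 0.523) and 0.03 (limma adjusted p = 0.937), and its r with the members was 0.90. Of 15 genes induced by glucocorticoids, hormones that reset clocks in the body and act on Per1, 13 and 12 lay above 0, with medians of 0.53 and 0.48; 6 and 8 had an unadjusted p under 0.05, and DESeq2 called 2 and 1. Tsc22d3, a leucine zipper gene of that list, held 10773, 13438 and 5088 normalised reads in the ANXA2 knockout, against 4439, 3393, 5852 and 4105 in the wild type (log2 1.05, limma adjusted p = 0.518). In the ANXA5 knockout it held 31345, 14015, 7426 and 24259, against 4855, 3714, 6463 and 4502, without overlap (log2 1.81, limma adjusted p = 0.217). Its r with the mean deviation of the members was 0.88, and with Wee1 0.91. Mt1, a metallothionein, was at 1.14 (limma adjusted p = 0.392) in the ANXA2 and at 0.17 (limma adjusted p = 0.786) in the ANXA5 knockout.

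Of 20 immediate early genes, which also answer to serum and stress, 19 lay above 0 in the ANXA2 knockout (median 0.41) and 2 in the ANXA5 knockout (median -0.22). Unadjusted p-values under 0.05 numbered 7 and 3, the second again near the share over all genes, and DESeq2 called 0 and 0. Between the knockouts 19 of the 20 were higher in the ANXA2 knockout, with a median of 0.75. There 17 had an unadjusted limma p under 0.05 (13.6% of all genes) and 13 lay wholly above the ANXA5 knockout (6.60%). DESeq2 called 12 of the 20 (2.46% of all genes), and limma and edgeR called 0. Egr3, a zinc finger factor of this list, was at 1.36 (limma adjusted p = 0.462) and 0.05 (limma adjusted p = 0.962), ANXA2 knockout first; in the second its mean of 262 normalised reads lay below the 275 of the wild type, opposite in sign to the log2 value. Of 12 targets of CREB, the factor through which cyclic AMP acts on Per1, 8 and 5 lay above 0 (medians 0.30 and -0.11), 2 and 2 had an unadjusted p under 0.05 and DESeq2 called 0 and 0.

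Levels of different genes were compared per length, as reads per kilobase of exon per M reads, with exon lengths from GENCODE vM21. Nr1d1 was the highest in all 3 groups, at 38.2 ± 20.2 in the ANXA2 knockout (SD, n = 3), 33.2 ± 13.2 in the ANXA5 knockout (SD, n = 4) and 26.2 ± 8.35 in the wild type (SD, n = 4). Per3 was the lowest, at 1.28 ± 0.0743, 1.09 ± 0.102 and 0.896 ± 0.101. In the wild type the order below Nr1d1 was Cry1 (14.5), Cry2 (11.4), Wee1 (9.78), Nr1d2 (9.45), Tef (5.39), Dbp (4.11), Per1 (3.53) and Per2 (2.95). Neighbours in that order overlapped over the 4 libraries except Nr1d2 with Tef and Per2 with Per3. Wee1 averaged 16.2 ± 4.06 in the ANXA2 and 19.1 ± 4.58 in the ANXA5 knockout. Its means were thus above those of Cry1 in both (11.6 and 11.8), whereas its mean was below that of Cry1 in the wild type. In the ANXA2 knockout the libraries overlapped, at 11.5 to 18.8 for Wee1 and 9.89 to 13.4 for Cry1. In the ANXA5 knockout they did not, at 14.6 to 24.2 and 10.4 to 12.7.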

How the data were processed

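RNA of 11 libraries was measured by sequencing. Per the labels' protocols it was extracted with an RNeasy mini plus kit, and 8.7 ng entered NEBNext library preparation. Per the submitters' processing notes the build was GRCm39 and the tools were DESeq2, HTSeq, STAR and Trim Galore, with versions and strand not given in the sources used here. Without strand, reads of a gene and an antisense partner cannot be told apart.

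The signal of the 2 deposited tables is the read count divided by a size factor of the library. Multiplied back, 100% of values were whole within 0.001, and these recovered reads served the count tests. The log2 fold changes that the authors deposited are knockout minus wild type. The p-values, adjusted, were deposited by the authors for 17374 (ANXA2) and 15949 (ANXA5) genes. The deposited score, a test statistic per the file headers, was not used because its sign is opposite to the fold change. ANXA2 knockout columns were assigned to their group but to no single sample, since their numbers (1, 3 and 4) are not those of the titles; 0 columns were left out.

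Tests used limma-trend 3.58.1 (R 4.3.3) on log2(value + 1), keeping genes that reached 10 in at least the number of libraries of the smaller group, two-sided and adjusted by Benjamini-Hochberg with 0.05 as the threshold. Fold changes on this scale understate those of low genes. The knockouts were compared in a joint fit of all libraries, scaled by median-of-ratios factors over shared genes. Alternatives were pseudocounts of 0.5 and 5, TMM scaling, edgeR 4.0.16, DESeq2 1.42.0, no filter, a minimum of 50, a replicate block, and leaving out each library. For each comparison limma with the main settings, edgeR and DESeq2 were run on simulated data, and the remaining alternatives were not. The genes named were the 10 members, both targets, up to 4 genes of each list by smallest unadjusted p, and the highest and lowest r in the search for like genes; Cdk1, Clock, Nfil3, Rorb, Tipin, Fkbp5 and Xist were added after their values were seen. A gene that the search also returned is not reported here. The members and lists were chosen with earlier results of these data known. Exon lengths came from GENCODE vM21 and promoters from RefSeq on GRCm38.p6, neither of the build of the files; no coordinate was moved between builds.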

Additional observations from a re-analysis of the deposited data

Results flagged for a closer look

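Among 48 sets of 4 libraries (16 named clock genes and targets in the ANXA5 knockout and in the wild type of each table, so that the same 4 wild type libraries count in both), 2 held a library far from the other 3, where chance gives about 1 in 20. Npas2 stood at 1887 normalised reads in ANXA5 knockout library 3, against 1224 to 1262 in the other ANXA5 knockout libraries. That library also held the lowest Nr1d1, Dbp and Tef values of its group. Cry2 stood at 2440 in wild type library 3 of the ANXA5 table, where the remaining wild type libraries ranged 1846 to 1947.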

How the results depend on the processing

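The calls over all genes moved with the tool: in place of 18 with limma, DESeq2 called 104 genes in the ANXA2 knockout; it called 282 in place of 5 in the ANXA5 knockout, and 397 in place of 50 between the knockouts. Leaving out each library gave 8 to 16, 4 to 32 (32 without wild type library 4) and 19 to 50. Of the other clock genes in the ANXA5 knockout, DESeq2 called 2 rather than 0, and dropping 1 library at a time gave 0 to 1 (Npas2, without ANXA5 knockout library 3). The cause was not tested. The labels do not say whether ANXA5 knockout and wild type libraries of equal number were paired. Their r of deviations was 0.05, -0.07, -0.25 and 0.07, which with 4 libraries a group cannot settle it. A fit with the replicate block called 8 genes, in place of 5. No paired analysis was possible for the ANXA2 knockout because its column numbers are not those of the titles. Counted over the 10 members and the alternatives other than the changed filters, all 120, 140 and 120 member differences stayed within 1 SD of the spread between libraries. Leaving out 1 library moves a group mean by only part of such an SD, so that rule could hardly fail and does not measure stability. The sign of the member differences turned in 0 cases in the ANXA2 knockout and in 2 in the ANXA5 knockout (Cry2). Between the knockouts it turned for Nr1d1, Per1, Per2 and Wee1. With 3 or 4 libraries a group, leaving out 1 library moved the differences of Nr1d1, Nr1d2, Dbp, Tef, Per3, Cry1 or Cry2 from the wild type by over 1.5 times, as given beside them.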

Other observations

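Within the ANXA5 knockout, several genes put the libraries in 1 order. Nr1d1 (4350, 3324, 2655 and 1327 normalised reads), Tsc22d3 (31345, 24259, 14015 and 7426) and Fkbp5, a glucocorticoid-induced cochaperone of the receptor (9733, 4146, 2592 and 1505), were all highest in library 1, followed by libraries 4, 2 and 3. In the wild type of the same table, Fkbp5 held 1046, 1072, 2111 and 1929 in libraries 1 to 4, and Per1 370, 366, 815 and 720, so libraries 3 and 4 were the higher ones for both. Nr1d1 did not divide the wild type in that way, with 2733, 1289, 3083 and 2040. These patterns were noticed in the data and carry no test.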
